A study of Sus scrofa with 6 samples.

Results

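The genes described here are those of metallothionein and zinc transport in the subcutaneous fat of pigs, measured by sequencing of total RNA. They are the table rows whose Ensembl identifier carries 1 of 8 pig symbols, MT1X, MTF1, SLC30A1, SLC30A5, SLC30A7, SLC39A8, SLC39A10 and SLC39A14. All 8 were found among 22844 rows, and all 8 were among the 14908 tested, which average 0.5 TPM or more across the 6 libraries. TPM is the authors' measure of transcript abundance per unit of length within a library. The set was taken by symbol, but it was selected on these libraries' own diet differences in level, which were known when it was proposed, so the diet values are given as a description and support nothing. The pigs were Duroc × Landrace × Yorkshire hybrids. The diet with resveratrol, a plant polyphenol, at 400 mg/kg gave 3 libraries, and the control diet gave 3. Age, sex, time on diet and whether each library is 1 animal are stated neither in the labels nor in the files, so the spread between libraries may be technical.

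Zinc is bound in the cell by metallothioneins, small cysteine-rich proteins that also bind copper and cadmium. MTF1 is a zinc-sensing transcription factor that binds metal response elements and drives metallothionein genes and the exporter gene SLC30A1. SLC30 proteins (ZnT) move zinc out of the cytosol, to the outside or into vesicles and the Golgi, and SLC39 proteins (ZIP) bring it into the cytosol. In mice, loss of SLC39A14 (ZIP14) enlarges fat cells and alters their cytokine output, and loss of SLC39A13 (ZIP13) favours beige fat.

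Depth was 34436239 to 37943877 reads in the resveratrol libraries and 16251536 to 34048559 in the control libraries, the lowest being control 2, which also stood apart on the first principal component (33.6% of variance). The fat-cell genes FABP4 (fatty acid carrier) and ADIRF (adipogenesis factor) measured at least 11828 and 4977 TPM in every library. The 4 rows of skin keratinocyte markers summed to 6.08 to 8.22 TPM in the resveratrol libraries and 6.86 to 10.2 TPM in the control libraries. Of these rows, 1 had 0 reads in all libraries. The summed TPM of 14 macrophage markers was 1158, 807 and 776 in resveratrol 1, 2 and 3, against 730, 697 and 622 in control 1, 2 and 3. That of 8 tendon and cartilage markers was 27.2 to 46.8 in the resveratrol libraries and 532, 45.4 and 100.01 in control 1, 2 and 3. In bulk tissue, fewer cells of a type and less RNA per cell cannot be told apart.

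MT1X, the metallothionein (ENSSSCG00000030300.2), was the most abundant of the 8 genes and the one with the widest spread between the diets. It measured 133, 212 and 221 TPM in resveratrol 1, 2 and 3, against 393, 406 and 469 TPM in control 1, 2 and 3. Every resveratrol library thus lay below every control library, with resveratrol 1 lowest. The mean was 189 ± 48.2 TPM in resveratrol and 423 ± 40.4 TPM in control (SD, n = 3 each), a ratio of 0.446.

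The read counts behind MT1X were modest for such a level, because its assigned length is short. They were 217, 350 and 360 reads in resveratrol and 529, 267 and 650 reads in control. As CPM, the read count relative to a library total adjusted by TMM (the trimmed mean of M values), they came to 5.78, 9.28 and 10.5 CPM in resveratrol and 17.8, 15.0 and 21.1 CPM in control, so the groups did not overlap on that scale either. The order within a group was not the same on both scales, since control 2 was the lowest control library by CPM and control 1 by TPM. The log2 fold change of the TMM-scaled counts, resveratrol over control, was -1.08 (SE 0.24). Of all tested rows, 2.08% had a log2 fold change at or under that of MT1X.

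**Figure D1:**
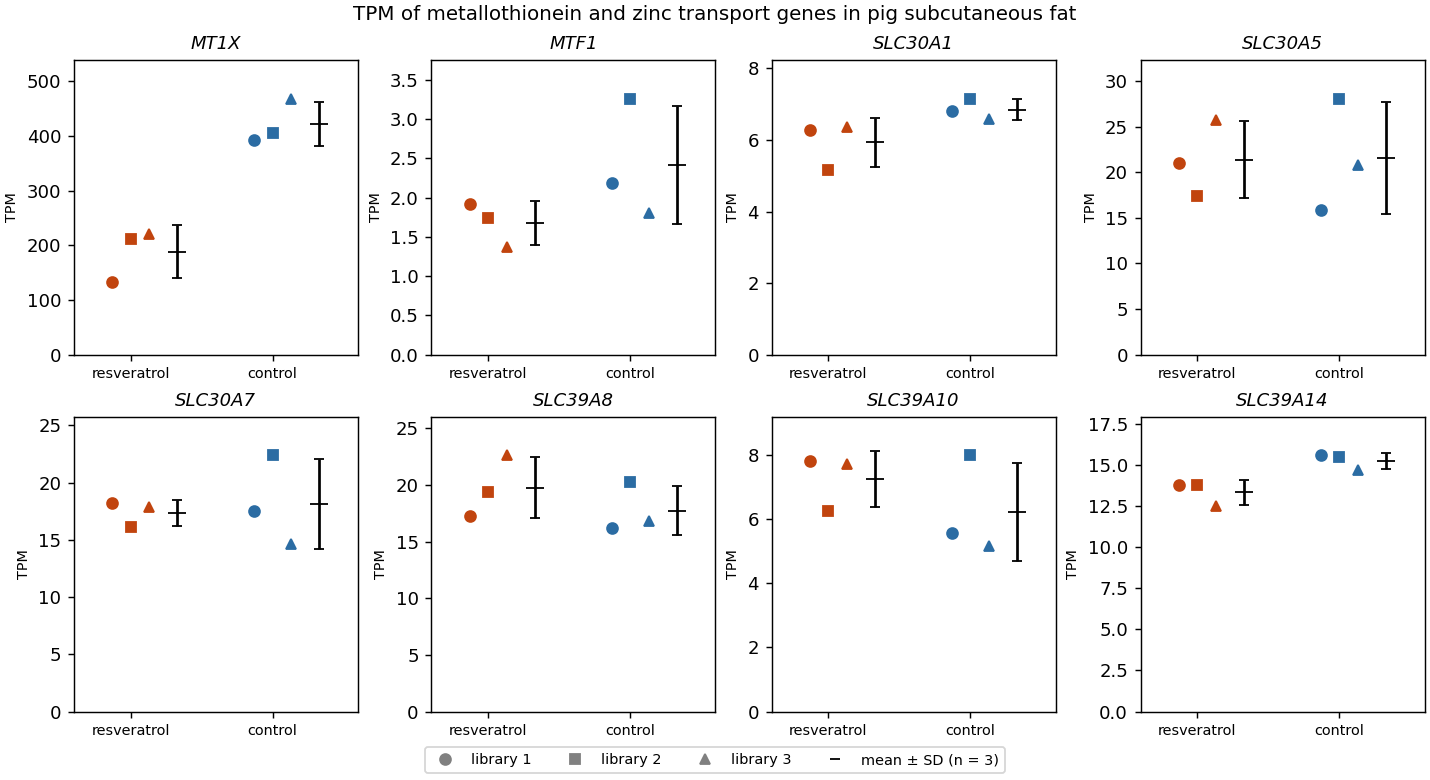
TPM of each of the 8 genes (vertical axis, from 0, a scale of its own in each panel) in the resveratrol libraries (left, orange) and the control libraries (right, blue), with marker shapes for library 1, 2 and 3 and black bars for the mean ± SD of 3. MT1X lies between 133 and 221 TPM in resveratrol and between 393 and 469 TPM in control, while the groups of MTF1, SLC30A5, SLC30A7, SLC39A8 and SLC39A10 overlap.

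Ratios within a library do not depend on how libraries are scaled. They were computed after the values were seen. MT1X over SLC30A1, the other textbook target of MTF1, was 21.3, 41.1 and 34.7 in resveratrol 1, 2 and 3 and 57.9, 56.7 and 71.2 in control 1, 2 and 3. The groups stayed apart, with a ratio of their means of 0.523. The log2 fold change of SLC30A1 itself was -0.11 (SE 0.18). These lower ratios thus follow mainly from the level of MT1X, on which the set was selected, and add nothing to it. MT1X over MTF1 was 69.4, 121 and 161 in resveratrol 1, 2 and 3 and 180.5, 124 and 260 in control 1, 2 and 3. Here the groups overlapped, since resveratrol 3 lay above control 2, and the ratio of the means was 0.623.

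Against ATOX1 and COX17, short genes of the copper list, the ratio was also lower in every resveratrol library. These ratios too were computed after the values were seen. ATOX1, the cytosolic copper chaperone, has a relative length of 0.0330 (1 is the median tested row), against 0.0231 for MT1X. MT1X over ATOX1 was 0.237, 0.317 and 0.333 in resveratrol and 0.782, 0.766 and 0.645 in control. Over COX17, the copper chaperone of cytochrome oxidase (relative length 0.0259), it was 0.167, 0.229 and 0.236 in resveratrol and 0.564, 0.587 and 0.401 in control. On the log2 scale the fold change of ATOX1 itself was 0.17 (SE 0.21), and that of COX17 was 0.12 (SE 0.25). Neither was lower, so the lower ratios follow from the level of MT1X, on which the set was selected, and add nothing to it.

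**Figure D2:**
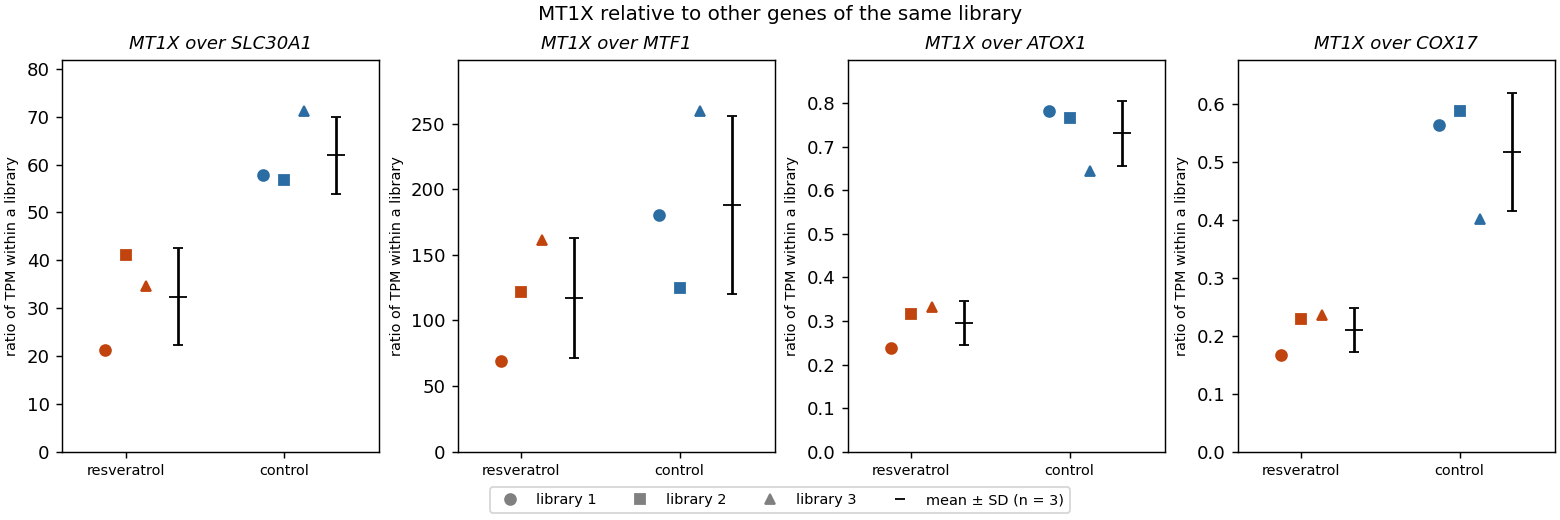
Ratio of the TPM of MT1X to that of SLC30A1, MTF1, ATOX1 and COX17 in the same library (vertical axes, from 0), with the resveratrol libraries on the left in orange, the control libraries on the right in blue and black bars for the mean ± SD of 3. For SLC30A1, ATOX1 and COX17 the 3 resveratrol ratios lie below the 3 control ratios, at 0.237 to 0.333 against 0.645 to 0.782 for ATOX1, and for MTF1 the groups overlap.

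The length that the authors' TPM assigned to MT1X differed between libraries by a factor of at most 1.038. Reads per TPM, divided by the median of that ratio over tested rows with at least 10 reads in the same library, gave a relative length of 0.0232 ± 0.000422 in resveratrol and 0.0230 ± 0.000182 in control (SD, n = 3 each). The exact two-sided permutation test over the 6 libraries gave p = 0.8 for MT1X (adjusted over the 8 genes, 0.8). The same exact test gave p = 0.1, the smallest that 3 against 3 allows, for MTF1, SLC30A1, SLC30A5, SLC39A8 and SLC39A10 (0.16 when adjusted over the 8 genes), so no gene could pass 0.05. The share of all rows at that p was not computed, so it cannot be called particular to these genes. Outside the set, the relative length of the fat-cell marker LIPE, named after its value was seen, lay apart too. It was 2.20 to 2.22 in resveratrol and 2.18 to 2.19 in control. That of ATOX1 overlapped, at 0.0325 to 0.0334 in resveratrol and 0.0320 to 0.0336 in control. Over all 8 genes the relative length of resveratrol over control lay between 1.006 and 1.015. A smaller relative length than that of MT1X was found in 149 tested rows. Among the 447 rows of at most 2 times its relative length, 11.9% had a log2 fold change at or under that of MT1X. Over all rows it was the 2.08% given above. At an unadjusted p under 0.05 in edgeR, 18 of the 447 rows differed, 12 of them lower. Over all 14908 rows 973 differed, 644 of them lower. The median log2 fold change was -0.08 in the short rows and -0.01 in all rows.

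Near-identical metallothionein copies limit what the row named MT1X holds. RefSeq's pig gene table (Sscrofa11.1) names 4 metallothionein genes, MT1A, MT1D, MT3 and MT4, and pairs none with the symbol MT1X. How the authors' counting treated reads shared by such copies is stated in no label or file used here, so reads of other copies may be counted in it. Of 12 other metallothionein symbols listed, 11 had no row under their symbols. A symbol was matched to 14750 of 22844 rows, and the rows without a symbol were not searched for metallothionein genes. MT3, the growth inhibitory form first known from brain, had 30, 15 and 3 reads in resveratrol and 18, 6 and 13 reads in control. Its levels of 13.1, 6.68 and 1.36 TPM in resveratrol and 9.39, 7.43 and 6.95 TPM in control overlapped, with a log2 fold change of -0.10 (SE 0.69) that ran from -0.89 (without resveratrol 1) to 0.38 (without resveratrol 3) as each library was left out in turn, and was 0.16 without control 1.

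MTF1 (ENSSSCG00000037516.1) was the least abundant of the 8 genes. It measured 1.92, 1.74 and 1.37 TPM in resveratrol and 2.18, 3.26 and 1.81 TPM in control. Resveratrol 1 lay above control 3, so the groups overlapped, and control 2 was the highest library. The log2 fold change was -0.41 (SE 0.22), and it ran from -0.54 to -0.25 with each library left out in turn.

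SLC30A1 (ENSSSCG00000039472.1) encodes ZnT1, the zinc exporter of the plasma membrane. It measured 6.27, 5.15 and 6.37 TPM in resveratrol and 6.80, 7.16 and 6.59 TPM in control. By TPM every resveratrol library was below every control library. By TMM-scaled counts the groups overlapped, at 15.0, 12.2 and 16.8 CPM in resveratrol and 16.8, 14.6 and 16.2 CPM in control, and the log2 fold change was -0.11 (SE 0.18).

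SLC30A5 (ENSSSCG00000022430.2) and SLC30A7 (ENSSSCG00000006860.3) encode ZnT5 and ZnT7, which load zinc into the early secretory pathway for enzymes such as alkaline phosphatase. SLC30A5 measured 21.0, 17.4 and 25.8 TPM in resveratrol and 15.8, 28.1 and 20.7 TPM in control, with the control libraries spanning the resveratrol ones. SLC30A7 measured 18.2, 16.1 and 17.8 TPM in resveratrol and 17.5, 22.4 and 14.6 TPM in control, again with the control libraries on both sides. The log2 fold change was 0.12 (SE 0.22) for SLC30A5 and 0.04 (SE 0.16) for SLC30A7.

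ZnT5 works as a dimer with ZnT6, the product of SLC30A6. SLC30A6 measured 7.28, 6.20 and 8.02 TPM in resveratrol and 6.26, 11.1 and 7.38 TPM in control. The ratio of SLC30A5 to SLC30A6 stayed narrow, at 2.88, 2.81 and 3.21 in resveratrol and 2.53, 2.54 and 2.81 in control. Both genes were highest by TPM in control 2.

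The importer genes were not all on the same side. SLC39A8 (ENSSSCG00000009169.3) encodes ZIP8, which carries zinc, manganese and cadmium. It measured 17.3, 19.4 and 22.6 TPM in resveratrol and 16.2, 20.2 and 16.8 TPM in control, so the TPM groups overlapped. By TMM-scaled counts they did not, at 37.01, 41.1 and 53.0 CPM in resveratrol and 35.7, 36.7 and 36.9 CPM in control, although resveratrol 1 and control 3 nearly met. The log2 fold change was 0.26 (SE 0.17), and 0.11 without resveratrol 3.

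SLC39A10 (ENSSSCG00000031954.1) encodes ZIP10, a zinc importer of the plasma membrane. It measured 7.79, 6.24 and 7.70 TPM in resveratrol and 5.55, 7.98 and 5.16 TPM in control. Control 2 was above every resveratrol library while control 1 and 3 were below every one. The log2 fold change was 0.34 (SE 0.18). SLC39A6, the close relative whose product ZIP6 pairs with ZIP10, measured 4.64, 3.61 and 3.78 TPM in resveratrol and 4.04, 4.96 and 3.43 TPM in control, with a log2 fold change of 0.06 (SE 0.17).

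SLC39A14 (ENSSSCG00000032622.1) encodes ZIP14, which carries zinc, manganese and non-transferrin-bound iron and is induced by interleukin 6 in mouse liver. It measured 13.8, 13.8 and 12.5 TPM in resveratrol and 15.6, 15.5 and 14.7 TPM in control. The highest library over the lowest was 1.25 by TPM, the smallest such ratio of the 8 genes. By TPM the resveratrol libraries were all below the control libraries. By TMM-scaled counts the groups overlapped, at 32.2, 31.8 and 31.6 CPM in resveratrol and 37.5, 30.4 and 35.7 CPM in control, and the log2 fold change was -0.12 (SE 0.15).

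In edgeR's quasi-likelihood test over all rows, 0 of the 8 genes passed a Benjamini-Hochberg adjusted p under 0.05, where 0% of 14908 rows passed, and MT1X had an adjusted p of 0.694. At an unadjusted p under 0.05, 1 of the 8 was lower (MT1X) and 0 were higher, against 4.32% and 2.21% of all rows (6.53% in either direction). DESeq2 on the same counts called 40 rows (0.268%), MT1X among them (adjusted p = 0.0317). Over the 17 alternative settings, the adjusted p of MT1X ran from 0.0317 to 1. Since the genes were proposed with this contrast known, nothing is read from these counts.

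By TMM-scaled counts, the groups did not overlap in 1 gene lower in resveratrol (MT1X) and 1 higher (SLC39A8), against 6.97% and 5.67% of all rows. By TPM they did not overlap in 3 genes lower (MT1X, SLC30A1 and SLC39A14) and 0 higher, against 8.15% and 4.11%. The scales differ in their centre, since the median row had a log2 fold change of -0.01 by TMM-scaled counts and -0.08 by log2(TPM + 0.5). By log2 fold change 4 of the 8 genes were below 0 and 4 above, with a median of -0.04. Control 2 gave the highest TPM in 5 of the 8 genes, but the highest TMM-scaled count in 1. The part of the shallow library in these levels was not tested.

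The levels of the 8 genes stood in 4 steps, compared per length in TPM over all 6 libraries. MT1X averaged 306 ± 134 TPM and was above every other member in 6 of 6 libraries. SLC30A5 (21.5 ± 4.71 TPM), SLC39A8 (18.8 ± 2.45 TPM), SLC30A7 (17.8 ± 2.62 TPM) and SLC39A14 (14.3 ± 1.20 TPM) followed, and the ranges of neighbours in that order overlapped. SLC39A10 (6.74 ± 1.24 TPM) and SLC30A1 (6.39 ± 0.69 TPM) also overlapped, while MTF1 (2.05 ± 0.65 TPM) lay below SLC30A1 in 6 of 6 libraries.

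**Figure D3:**
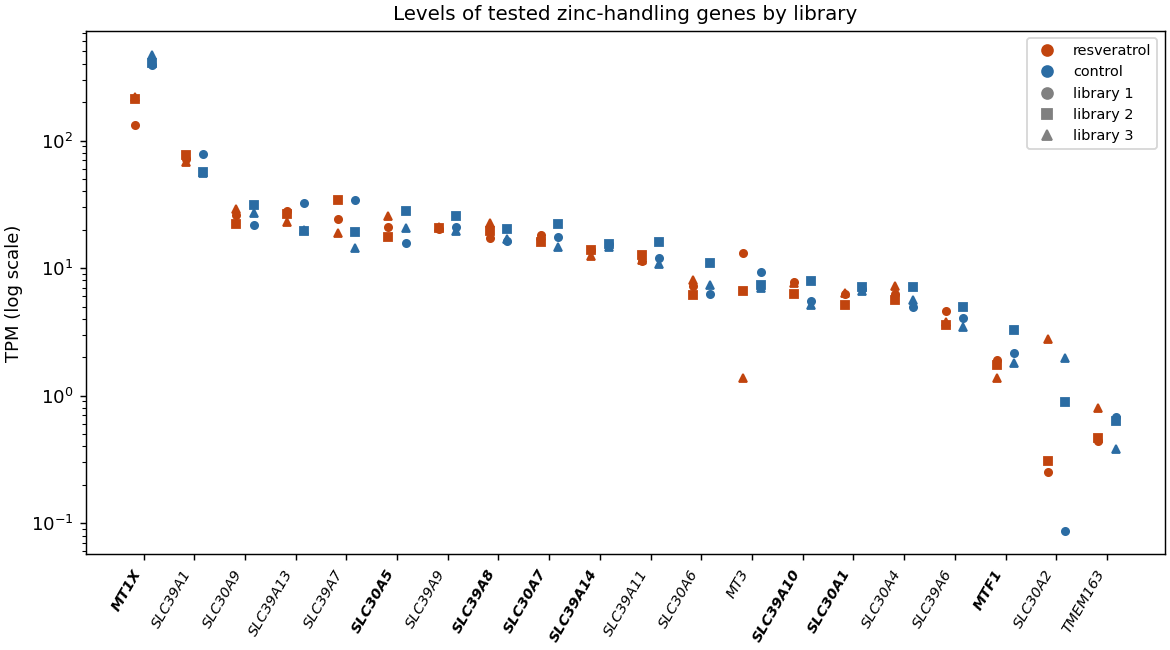
TPM (vertical axis, log scale) of the 20 tested metallothionein, MTF1 and zinc transporter genes, ordered by mean, with the 8 genes described in bold, resveratrol in orange to the left of control in blue, and marker shapes for library 1, 2 and 3. MT1X is highest in every library, SLC39A1 follows at 56.05 to 78.0 TPM, and SLC30A2 and MT3 spread widest between libraries.

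The other genes of the same families were described from a list of 31 symbols, of which 18 had a row and 12 were tested. In edgeR 0 of the 12 passed the adjusted threshold in either direction (smallest adjusted p = 0.772), 0 had an unadjusted p under 0.05, and DESeq2 called 0. By log2 fold change 9 were above 0 and 3 below, with a median of 0.08, against -0.01 over all rows.

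Among the exporters, SLC30A9, a zinc carrier of mitochondria, was the most abundant, at 25.9, 22.3 and 28.8 TPM in resveratrol and 21.8, 31.0 and 27.0 TPM in control, and its log2 fold change was 0.06 (SE 0.18). SLC30A4, an endosomal transporter, measured 5.65 to 7.20 TPM in resveratrol and 4.93 to 7.11 TPM in control (log2 fold change 0.21, SE 0.19). SLC30A2, known for zinc secretion into milk, had 14, 17 and 156 reads in resveratrol and 4, 20 and 93 reads in control, so that library 3 was the highest of each group (log2 fold change 0.31, SE 1.23). TMEM163, a vesicular zinc transporter, stayed under 1 TPM in all 6 libraries (log2 fold change 0.10, SE 0.48). The 9 SLC30 rows with their members included summed to 85.4, 73.3 and 96.9 TPM in resveratrol and 73.6, 108 and 84.03 TPM in control, which overlap.

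Among the importers, SLC39A1 (ZIP1, of the plasma membrane) led with 72.02, 76.8 and 67.8 TPM in resveratrol and 78.0, 56.3 and 56.05 TPM in control, and its log2 fold change was 0.25 (SE 0.20). SLC39A7, which releases zinc from the endoplasmic reticulum, measured 24.2, 33.9 and 19.0 TPM in resveratrol and 34.1, 19.2 and 14.5 TPM in control (log2 fold change 0.24, SE 0.33). SLC39A13 measured 28.2, 26.3 and 23.02 TPM in resveratrol and 32.3, 19.5 and 19.8 TPM in control (log2 fold change 0.17, SE 0.24). Control 1 was the highest library for these 3 genes. SLC39A9 stood at 0.02 (SE 0.15) on the log2 scale and SLC39A11 at -0.02 (SE 0.16). The 13 SLC39 rows summed to 201, 215 and 189.9 TPM in resveratrol and 220.5, 187 and 162 TPM in control, which also overlap.

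**Figure D4:**
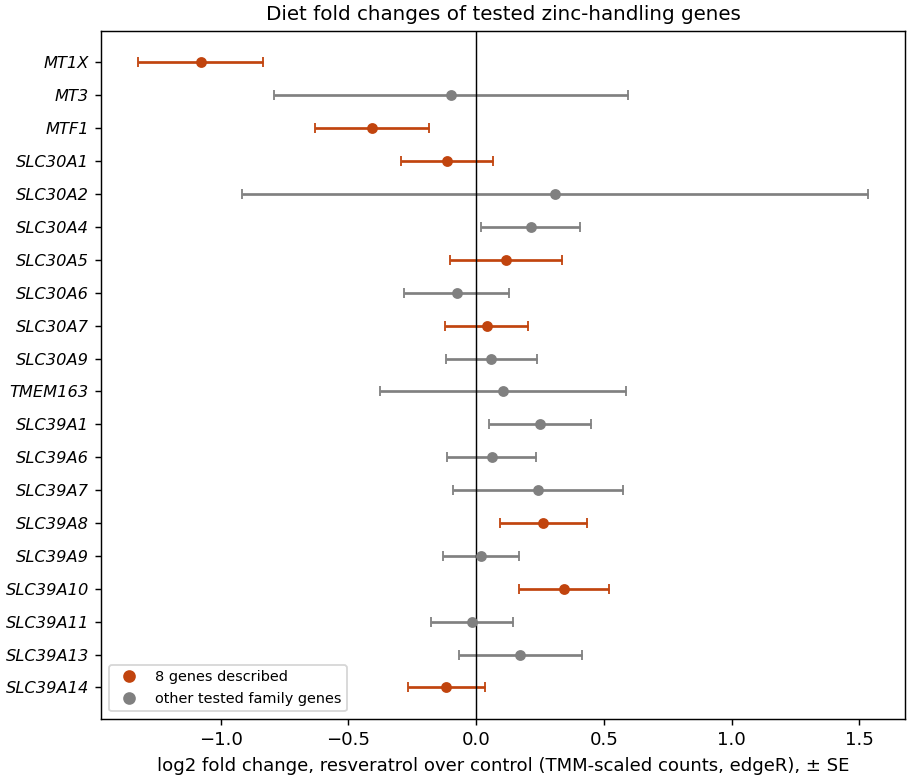
Log2 fold change of TMM-scaled counts, resveratrol over control, with its SE (horizontal axis), for the 20 tested metallothionein, MTF1 and zinc transporter genes (rows), the 8 genes described in orange and the other 12 in grey. MT1X stands at -1.08, and the other genes lie between -0.41 (MTF1) and 0.34 (SLC39A10).

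Genes of neighbouring metals and of the signals that act on metallothionein and ZIP14 were described from textbook lists of 12 to 16 symbols. These are not whole pathways, and some of the symbols had no row. Over these lists edgeR gave an unadjusted p under 0.05 to 0 copper and 0 iron genes. It gave such a p to 2 listed partners of zinc homeostasis, 1 glucocorticoid target and 1 interleukin 6 gene, all lower in resveratrol. Of all rows, 4.32% were lower and 2.21% higher at that p. DESeq2 called 1 gene in all, where it called 0.268% of all rows. In copper handling, 0 of 12 tested genes passed in either direction, with a median log2 fold change of 0.17. SOD1, the copper and zinc superoxide dismutase, averaged 1569 ± 169 TPM in resveratrol and 1146 ± 213 TPM in control (SD, n = 3 each; log2 fold change 0.51, SE 0.23), and CCS, its copper chaperone, had a log2 fold change of 0.36 (SE 0.19). In iron handling, 0 of 9 passed, with a median of 0.22. SLC40A1, the iron exporter ferroportin, measured 64.3, 52.9 and 57.3 TPM in resveratrol and 46.7, 47.6 and 48.5 TPM in control (log2 fold change 0.37, SE 0.17). FTL, the ferritin light chain, had one of 0.38 (SE 0.24). Macrophages carry much SLC40A1 and FTL, and the summed macrophage markers given above were also higher in every resveratrol library. Their part in these values was not tested.

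Glucocorticoids induce metallothionein genes in mammals, and 0 of 11 tested glucocorticoid targets passed in edgeR, with a median log2 fold change of -0.10. PER1, a clock repressor, stood at -0.79 (SE 0.18) on the log2 scale and was the 1 gene of the list that DESeq2 called (adjusted p = 0.0159). ZBTB16, a zinc finger repressor, measured 36.1, 34.3 and 34.6 TPM in resveratrol and 41.06, 57.8 and 45.7 TPM in control. FKBP5, named after its value was seen, a chaperone that glucocorticoids induce strongly, measured 22.1, 18.9 and 27.6 TPM in resveratrol and 22.4, 39.2 and 28.1 TPM in control, which overlap.

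The interleukin 6 and acute-phase list held 14 symbols, of which 10 had a row and 9 were tested. HP, SAA3, ORM1 and IL1B had no row under their symbols. CRP was under the filter, at a mean of 0.586 TPM in resveratrol and 0.407 TPM in control. LCN2 was thus the only acute-phase product tested. Of the 9 genes, 0 passed in edgeR and 9 had a log2 fold change below 0, as had 7627 of all 14908 tested rows. Their median was -0.21, against -0.01 over all rows. By TMM-scaled counts 5 of the 9 were lower in every resveratrol library, against 6.97% of all rows. IL6 itself measured 3.10, 3.68 and 4.37 TPM in resveratrol and 4.40, 6.31 and 6.49 TPM in control (log2 fold change -0.59, SE 0.28). LCN2, an acute-phase lipocalin, measured 21.2, 18.2 and 18.1 TPM in resveratrol and 21.7, 37.4 and 29.3 TPM in control (log2 fold change -0.52, SE 0.18). The groups nearly met at resveratrol 3 and control 1 for IL6, and at resveratrol 1 and control 1 for LCN2. Among the listed partners of zinc homeostasis, 0 of 14 passed and the median was -0.01. The smallest unadjusted p there were those of CREB3L1, a transcription factor of matrix secretion (log2 fold change -1.23, SE 0.36), and EP300, the coactivator that MTF1 recruits (-0.48, SE 0.19). CREB3L1 measured 9.40, 9.46 and 5.52 CPM in resveratrol and 28.1, 9.97 and 19.1 CPM in control. Resveratrol 2 and control 2 thus nearly met.

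The genes whose pattern over the 6 libraries was most like that of a member were found by the root mean square difference of centred log2 CPM, among 7679 genes with a symbol and a mean of at least 5 TPM. The libraries are the same for all genes, so depth and tissue makeup are shared. For MT1X they were ADRA1A, an adrenergic receptor (difference 0.22), FCN2, a lectin of complement (0.25), and TIMP3, a metalloprotease inhibitor (0.29). ADRA1A measured 3.16, 5.09 and 3.61 TPM in resveratrol and 7.46, 7.84 and 7.71 TPM in control. TIMP3 measured 238, 272 and 293 TPM in resveratrol and 446, 433 and 436 TPM in control. For SLC39A14 the nearest were RRP1B, MINDY1 and S1PR1 (0.030, 0.032 and 0.035), and for SLC30A1 they were MEDAG, PRICKLE2 and UBR7 (0.057, 0.058 and 0.068), with log2 fold changes of these 6 genes between -0.18 and -0.05.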

How the data were processed

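Total RNA of subcutaneous fat was sequenced, per the labels, and 6 libraries were grouped by their titles. Per the file headers, the authors deposited read counts and TPM per gene for each library. A series table deposited by the authors holds the same TPM values for 14777 rows. The submitters' processing notes name the mouse builds mm8 and mm9 and the aligner Bowtie 0.12.2, with no role. The pig build, annotation and counter, like the handling of strand, are details not given in the sources used here, so no coordinates are printed and overlapping genes cannot be told apart. Symbols came from a table pairing identifiers with symbols (14750 of 22844 rows matched).

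Rows averaging 0.5 TPM or more were tested on the counts with edgeR 4.0.16 (R 4.3.3; TMM, robust quasi-likelihood, Benjamini-Hochberg over 14908 rows). The SE is the log2 fold change divided by the square root of F. Alternatives used DESeq2 1.42.0, limma 3.58.1 on log2 TPM, other scalings and filters, a replicate block, and each library left out.

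The members, lists and tests were chosen with earlier results of these data known. The text names all members, all tested genes of the same families, the 2 genes with the smallest unadjusted p of each other pathway list and the 3 nearest in pattern to 3 members. Cell type lists appear as summed levels where they bear on a result, with the 2 most abundant fat-cell markers. ATOX1, COX17, FKBP5 and LIPE were named outside these rules, after their values were seen.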

Additional observations from a re-analysis of the deposited data

How the results depend on the processing

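MT1X stayed lower in resveratrol under all 17 alternatives, with a log2 fold change from -1.25 (without resveratrol 3) to -0.86 (without resveratrol 1), and it passed the adjusted threshold in DESeq2 alone. MTF1 and SLC39A14 stayed below 0, and SLC39A8 and SLC39A10 above 0, under all 17. SLC30A1 was above 0 under 1, SLC30A5 below 0 under 2 and SLC30A7 below 0 under 5. The median of the 8 genes ran from -0.10 to 0.06 with each library left out, and from -0.12 to 0.03 under the other settings. The median of the other SLC30 genes was -0.21 without resveratrol 3, that of copper handling 0.42 without control 3, that of the other SLC39 genes 0.29 without control 1, 0.06 without control 2 and 0.0042 without control 3, and that of the glucocorticoid targets from -0.23 without control 1 to -0.02 without control 3. The median of iron handling was 0.13 under each limma setting. That of the partners of zinc homeostasis ran from -0.11 to 0.05 over the 17 alternatives. Over all rows edgeR called 0, DESeq2 40 and edgeR without control 2 called 5. In the pathway lists DESeq2 called 1 gene, PER1. At an unadjusted p under 0.05 there were 973 rows, from 403 without resveratrol 3 to 1681 without control 3, and 556 without resveratrol 1. The relative length of MT1X, resveratrol over control, was 1.007, from 0.997 to 1.013 with each library left out, and 1.113 when scaled by library totals, which puts the same factor on every gene. The causes of the other shifts were not tested. With the replicate number as a block, edgeR called 0 rows, 1259 had an unadjusted p under 0.05, and MT1X had a log2 fold change of -1.11 (adjusted p = 0.409). Same-numbered libraries had deviations that correlated at 0.157, 0.074 and 0.200, and 6 of 6 libraries correlated best with their own number. The deviations were taken from the mean of each group of 3, so these matches depend on each other and cannot show pairing. The labels state no pairing. Low read counts limit MT3, SLC30A2 and TMEM163, whose SEs were 0.69, 1.23 and 0.48.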
